A study of Mus musculus with 12 samples.

Results

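miR-21 (array entry mmu-miR-21) is 1 of the 611 mouse miRNA entries on the arrays used here, and 1 of 650 entries in all. It was chosen by its name on the array alone, without the star that marks the other arm of its hairpin, and it is carried by 2 probes. The study asked how miRNAs take part in the daily rhythm of mouse liver. Total RNA was hybridised to one-colour Agilent miRNA arrays in which the dye was Cy3. The mice were adults on a schedule of 12 h light and 12 h dark, could eat and drink at all times, and zeitgeber time (ZT) is counted in hours after lights on. Collection ran from ZT18 to ZT62 in steps of 4 h, and each of the 12 arrays took an equal mix of RNA from 2 livers. The arrays fall on 6 clock times, at 2, 6 and 10 h after lights on in the light and at 14, 18 and 22 h in the dark. Each clock time has 2 arrays 24 h apart, called cycle 1 (ZT18 to ZT38) and cycle 2 (ZT42 to ZT62). The labels name no strain, sex, genotype or treatment, and all groups share the same housing. Since an array stands for a pool, p-values reflect how pools and arrays vary, and mice were not measured singly.

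miRNAs are short RNAs that guide Argonaute proteins to messenger RNAs, mainly through the seed near their 5′ end, and lower the output of those messengers. miR-21 is made in many cell types and is induced in injured, regenerating and fibrotic liver. In whole liver, fewer cells of a type that holds miR-21 and less miR-21 per cell cannot be told apart.

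The mature sequences below show what the entry stands for, with the seed (bases 2 to 8) in capitals. They are those of RefSeq for the mouse assembly GRCm38.p6, where the older name mmu-mir-21 is a synonym of Mir21a. The 5′ arm is the miRNA of the entry, the 3′ arm is the star strand of the same hairpin, and miR-21c is the other mature sequence in that table with the same seed.
mmu-miR-21a-5p: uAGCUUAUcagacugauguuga
mmu-miR-21a-3p: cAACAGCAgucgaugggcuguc
mmu-miR-21c: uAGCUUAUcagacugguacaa
Of 1738 mature sequences in the table, 2 hold the seed AGCUUAU, those of miR-21a-5p and miR-21c; miR-590-5p, which is known to share it, is not counted among them. miR-21c is 21 bases long against 22 and first departs from miR-21a-5p at position 16, counted from the 5′ end. The array has no entry of its own for miR-21c, and how far the miR-21 probes would bind it was not tested. On GRCm38.p6 miR-21a-5p lies on the minus strand at chr11:86584120-86584141 and its partner arm at chr11:86584082-86584103. The 92-base hairpin at chr11:86584067-86584158 lies within the span of Vmp1 (chr11:86583858-86683836), a gene for a membrane protein of autophagy, starting 209 bases from that gene's lower end. Whether it is exonic or intronic is not stated, since no transcript model was used here. miR-21c lies at chr8:128278188-128278208, also on the minus strand.

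The entry for the star strand, miR-21*, was detected on 1 of 12 arrays (ZT50), where the scanner software's total gene signal was 11.1 units. On the others it was not detected, though 1 of its spots was well above background at ZT42. miR-590-5p, a further member of the miR-21 seed family, was detected on 0 of 12 arrays. Neither gives a level over the cycle, so the values below are those of miR-21 itself.

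Both probes of miR-21 were measured far above background on every array. The brighter probe kept 107 of 120 spots after outlier spots were removed, all 107 were well above background, and 0 were saturated. Its mean before scaling lay between 7513 and 9752 intensity units, while the local background lay between 26.2 and 31.5. The spots of one array varied with a coefficient of variation between 0.839% and 7.60% (median 5.32%), which gave an SE of the array's log2 level with a median of 0.026. The dimmer probe kept 112 of 120 spots, with means between 3653 and 4821 and coefficients of variation between 0.820% and 4.70%. Over the 12 arrays the scaled levels of both probes went together, with Pearson's r = 0.935 (permutation p = 0.00032) and Spearman's rho = 0.811 (permutation p = 0.00213). Without ZT22 and ZT46, the arrays farthest from the median, r was 0.620, and on the 8 arrays of slide 1 it was 0.982. The probes share the RNA, the label and the scaling of each array. Levels below are those of the brighter probe unless the dimmer one is named.

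The ZT22 array stands apart from the others and bears on most results. A floor of 22.2 intensity units was set on all values. Of 109 tested entries always above it, 43 (39.4%) had their lowest or highest value of the 12 arrays at ZT22, 26 (23.9%) the highest and 17 (15.6%) the lowest. ZT30 came next with 34 entries (31.2%), and ZT46, the other array at 22 h, had 2. ZT22 also had the lowest median correlation with the other arrays across entries, 0.991, against 0.992 at ZT50, the next lowest, and up to 0.996. Slide 1 held ZT18 to ZT46 and slide 2 held ZT50 to ZT62, so slide and cycle overlap in part. Results are therefore given with and without ZT22 where it moves them.

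miR-21 stayed within a narrow band over both cycles, apart from the end of the night. In cycle 1 its scaled intensity was 9063 at ZT18, 7147 at ZT22, 8796 at ZT26, 9195 at ZT30, 9289 at ZT34 and 8440 at ZT38. ZT22 was the lowest array of the cycle, while the other 5 lay between 8440 and 9289. In cycle 2 it was 8677 at ZT42, 8259 at ZT46, 8948 at ZT50, 8845 at ZT54, 8755 at ZT58 and 9185 at ZT62. ZT46 was the lowest array of this cycle, and the other 5 lay between 8677 and 9185. Over all 12 arrays the mean was 13.09 ± 0.10 log2 units (SD, n = 12), and the highest array exceeded the lowest 1.30-fold. The dimmer probe ranged from 3446 at ZT22 and 4016 at ZT46, its 2 lowest arrays, to 4733 at ZT50.

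**Figure D1:**
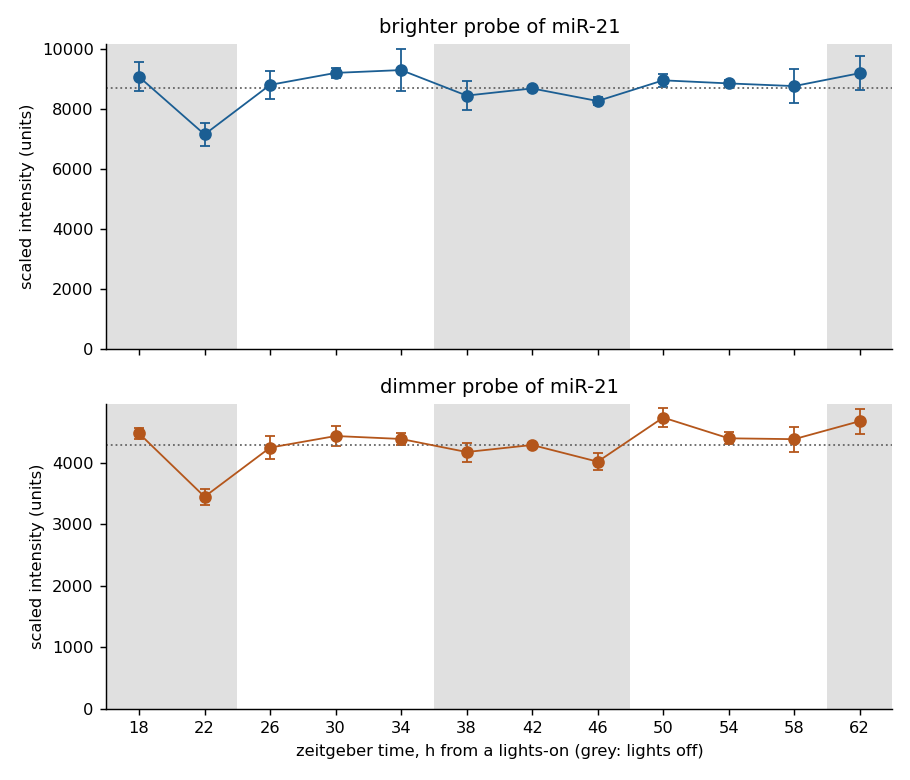
Scaled intensity of the brighter (top) and dimmer (bottom) probe of miR-21 at each zeitgeber time, with 1 array of 2 pooled livers per point; bars are the SD of the spots on that array, the dotted line is the mean and grey marks the dark. Both probes have their lowest point at ZT22 (7147 and 3446 units) and their next lowest at ZT46 (8259 and 4016 units), and the other 10 arrays lie between 8440 and 9289 and between 4172 and 4733 units.

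The clock times were close to each other except the last one before lights on. The mean was highest at 6 h, at 13.14 ± 0.04 log2 units (SD, n = 2), and at 10 h, at 13.14 ± 0.06 (SD, n = 2). It was 13.11 ± 0.02 (SD, n = 2) at 2 h, 13.11 ± 0.04 (SD, n = 2) at 18 h and 13.10 ± 0.09 (SD, n = 2) at 14 h. These 5 means differed from each other by less than the SD between the arrays at 14 h or at 10 h, so their order is within the spread. The mean at 22 h was 12.91 ± 0.15 (SD, n = 2), which is 0.20 below that at 14 h, and both of its arrays lay below the arrays of every other clock time. ZT46, at 13.01, was only just below ZT38, at 13.04, closer than the SD of 0.078 between arrays of one clock time. The low mean at 22 h thus came mainly from ZT22, at 12.80.

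How far miR-21 lay below the rest of its cycle at 22 h depended on the scaling. At ZT22 miR-21 stood at 79.8% of the mean of the other 5 arrays of its cycle, and at ZT46 it stood at 93.0%. With the dimmer probe these shares were 79.4% and 89.4%. Before scaling, which multiplied intensities by 0.917 at ZT22 and 1.10 at ZT46, they were 86.9% and 84.6% with the brighter probe and 86.5% and 81.3% with the dimmer one. Without scaling ZT46, at 7513 units, was thus lower than ZT22, at 7794, so the order of the 2 arrays turns with the scaling. Set against miR-122, the abundant hepatocyte miRNA, on the same array, they were 81.1% and 89.3%. The log2 difference of miR-21 from miR-122 was lowest at ZT22, at -2.10, with a mean over all arrays of -1.86 ± 0.12 (SD, n = 12) and a highest value of -1.68 at ZT30. After scaling, at 22 h the array of cycle 2 exceeded that of cycle 1 1.16-fold, and at 14 h 1.09-fold. At 2 h the ratio was 1.02, and at 6, 10 and 18 h it was 0.962, 0.943 and 0.957.

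**Figure D2:**
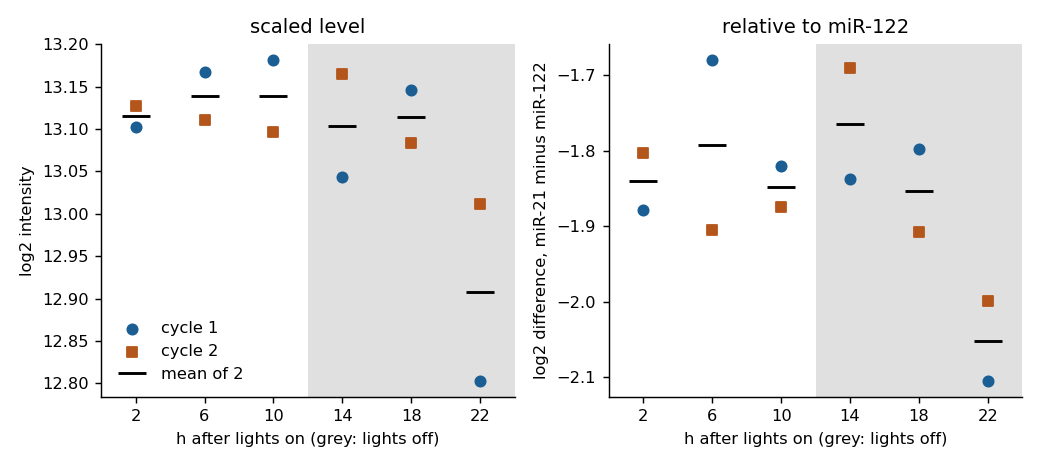
miR-21 by hours after lights on, as its scaled log2 intensity (left) and as its log2 difference from miR-122 on the same array (right); circles are cycle 1, squares cycle 2, 1 array each, black lines the mean of 2 arrays, and grey marks the dark. At 22 h both arrays lie below all others in both panels, with a mean of 12.91 log2 units on the left, and the other 5 clock times overlap.

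That both arrays at 22 h are the lowest was noticed after the values were seen and has no test of its own. The background for it is that 2 of 109 entries never at the floor (1.83%), miR-21 and miR-425, had both of their 22-h arrays below all others. For 14 of the 109 (12.8%) both arrays of some clock time were the lowest, and for 8 of these that clock time was 14 h. The pattern in miR-21 also depended on processing. The 22-h arrays were the 2 lowest with no scaling, with outlier spots kept and with the mean of the probes. They were so too with the scanner software's total gene signal and relative to miR-122. Leaving out the floor could not change the order, since every value of miR-21 lies far above it. With normexp background correction ZT58 came between ZT22 and ZT46, and with scaling on all probes ZT50, ZT54 and ZT58 were the lowest.

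Clock time as a whole had no effect on miR-21 that passed the test. The means of the 6 clock times spanned 1.17-fold, with an adjusted p of 0.806 by limma's F test after Benjamini-Hochberg adjustment over 139 entries. Of those entries 0 passed (0.0%), and 6 (4.32%) had an unadjusted p under 0.05; that of miR-21 was 0.104. A permutation test of the time labels for miR-21 alone gave p = 0.101, with 68.2% of its variance between clock times. Without ZT22 the span was 1.09-fold (adjusted p = 0.924 in limma), and without ZT46 it was 1.26-fold (adjusted p = 0.319). The SD of miR-21 between arrays of one clock time was 0.078 log2 units and that of its 6 clock-time means was 0.089.

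The 24-h wave fitted to miR-21 was small with the scaling used. The fitted peak-to-trough fold was 1.12, with an upper 95% limit of 1.29 and a fitted peak 9.51 h after lights on, and the adjusted p was 0.957 in limma. Again 0 of 139 entries passed (0.0%), and 5 (3.6%) had an unadjusted p under 0.05. The permutation p for miR-21 was 0.110, and the wave took up 33.2% of its variance. Leaving out ZT22 lowered the fold to 1.05 (adjusted p = 0.996 in limma), and on slide 1 alone it was 1.15. With all-probe scaling, which rests on probes near background, the fold was 1.30 and the span of the clock-time means 1.63. The fitted 12-h component had a fold of 1.09 with an upper limit of 1.26 and an adjusted p of 0.794 in limma. For that component 0 entries passed (0.0%) and 8 (5.76%) had an unadjusted p under 0.05.

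miR-21 did not differ detectably between light and dark. In the light its 6 arrays had a lowest value of 8755, a median of 8896 and a highest value of 9289 units. In the dark the lowest was 7147, the median 8558 and the highest 9185. The groups overlap, since ZT18 and ZT62 in the dark lie among the light arrays, and 4 of 6 dark arrays lie below the light mean. The light arrays averaged 13.13 ± 0.04 log2 units (SD, n = 6), and the dark arrays, which spread more widely, 13.04 ± 0.13 (SD, n = 6). Dark minus light was -0.09 log2 units (SE 0.053; 95% interval -0.21 to 0.03), with an adjusted p of 0.740 in limma. Of 139 entries 0 passed (0.0%), 11 (7.91%) had an unadjusted p under 0.05, and an exact two-sided permutation over 924 splits gave p = 0.110 for miR-21. With the dimmer probe the light mean was 12.11 ± 0.05 (SD, n = 6) and the dark mean 12.02 ± 0.15 (SD, n = 6). Without ZT22 dark minus light was -0.04 (adjusted p = 0.790 in limma), and on slide 1 alone it was -0.13. With the all-probe scaling the sign turned to 0.34, and on slide 2 alone, with 1 dark array, it was 0.05.

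The cycles did not differ detectably either. The mean of miR-21 was 13.07 ± 0.14 log2 units (SD, n = 6) in the first cycle and 13.10 ± 0.05 (SD, n = 6) in the second, and 3 of 6 pairs of arrays 24 h apart rose. Cycle 2 over cycle 1 was 1.02-fold (95% interval 0.942 to 1.10), with an adjusted p of 0.877 in limma and an exact sign-flip permutation p of 0.625. Of 139 entries 0 passed (0.0%) and 5 (3.6%) had an unadjusted p under 0.05. Without ZT22 or without ZT46 the difference was -0.01, against 0.03 log2 units with all arrays. With slide as a block it was 0.07, with miR-21 at 13.07 ± 0.12 (SD, n = 8) on slide 1 and 13.12 ± 0.03 (SD, n = 4) on slide 2. The dark-minus-light difference changed by 0.13 log2 units from cycle 1 to cycle 2, with an adjusted p of 0.951 for this interaction in limma. It was -0.15 in cycle 1 and -0.02 in cycle 2, and without ZT22 the value of cycle 1 was -0.06 and the change 0.03. There 0 entries passed (0.0%) and 3 (2.16%) had an unadjusted p under 0.05.

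**Figure D3:**
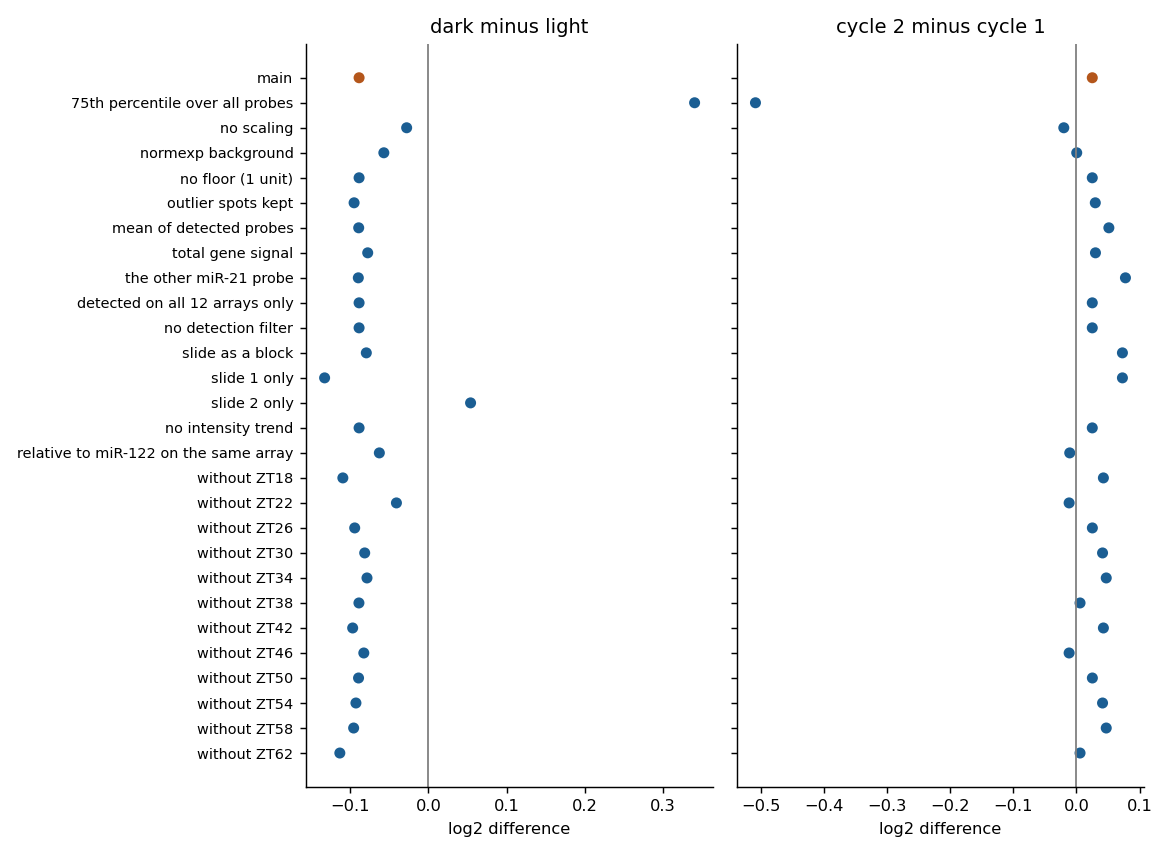
Log2 difference of miR-21 between dark and light (left) and between cycle 2 and cycle 1 (right) as reported (orange, top) and under each other processing or with 1 array left out (blue); the vertical line is 0. Dark minus light lies below 0 except with all-probe scaling (0.34) and on slide 2 alone (0.05), and cycle 2 minus cycle 1 lies on both sides of 0.

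The spread of miR-21 over the arrays rested on ZT22. Among the 18 entries never at the floor with a mean above 1000 units, 3 had a larger SD over the 12 arrays than its 0.10 log2 units, and the median was 0.061. The largest SD was 0.297, that of miR-451, a miRNA of red cells. Among all 109 entries never at the floor, 49 had a larger and 59 a smaller SD than miR-21, with a median of 0.095. Without ZT22 the SD of miR-21 was 0.053, below the median of 0.059 of the 18 bright entries, of which 12 then had a larger SD. Of the 109 entries 96 then had a larger SD. ZT22 is the lowest array of miR-21 itself, so leaving it out was bound to lower this SD. For most entries the extreme arrays lie elsewhere, with 43 of the 109 at an extreme at ZT22. The ranks without ZT22 are therefore no measure of how stable miR-21 is.

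**Figure D4:**
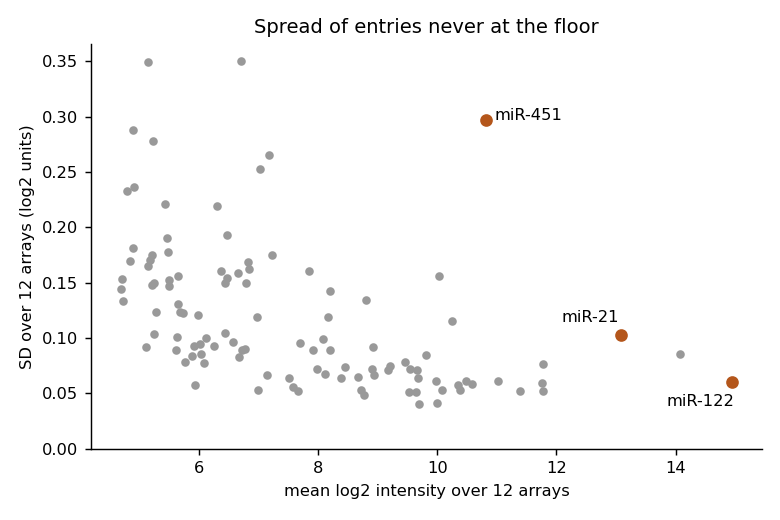
SD over the 12 arrays against mean log2 intensity for the 109 tested entries never at the floor, 1 point per entry, with miR-21, miR-122 and miR-451 in orange. Dim entries on the left reach SDs above 0.3, and among the bright entries on the right miR-21, at 0.10, lies above the median of 0.061. Without ZT22, its own lowest array, its SD was 0.053, below the median of 0.059.

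Which entries went up and down with miR-21 from array to array was examined over 132 other entries that were tested and varied. After Benjamini-Hochberg adjustment of the permutation p-values 0 of them passed (0.0%), by Pearson's r (smallest adjusted p = 0.356) or by Spearman's rho (smallest 0.953). Without adjustment 16 (12.1%) had a p under 0.05 by Pearson's r and 5 by Spearman's rho. Of the 108 never at the floor, 54 had an r above 0 and 54 below.

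The entries most like miR-21 were those that were also low on the ZT22 array. miR-19a, a growth-promoting member of the miR-17-92 cluster, had the highest r, 0.824 (permutation p = 0.0127), with rho = 0.650 (p = 0.0253). It stood at 85.7% of its mean at ZT22, and r was 0.349 without that array and 0.505 without ZT22 and ZT46. miR-212, made from a transcript that the factor CREB drives, had r = 0.779 (permutation p = 0.0153) and rho = 0.427, with r = 0.305 without ZT22. miR-25 had r = 0.740 (permutation p = 0.0316) and rho = 0.455, with r = 0.110 without ZT22. miR-19b, which shares the seed family of miR-19a, had r = 0.712 (permutation p = 0.0191) and rho = 0.434, with r = 0.260 without ZT22. The fifth was mcmv-miR-m88-1, a cytomegalovirus entry, with r = 0.658 (permutation p = 0.0242) and rho = 0.420. Its mean of 6.43 log2 units lay above that of miR-19a (5.88), and what its signal stands for in these livers was not tested. On slide 1 these 5 had r between 0.770 and 0.900, and their adjusted p over the 132 entries was 0.356 each.

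Among the entries never at the floor, the 3 most opposed to miR-21 were high at ZT22. miR-199b*, a miRNA of mesenchymal cells, had r = -0.715 (permutation p = 0.0291, adjusted p = 0.356) and rho = -0.308. It stood at 163% of its mean at ZT22, and had r = -0.137 without that array. This entry was dim, with a mean of 29.7 units and a lowest value of 22.6, close to the floor of 22.2. miR-143, of smooth muscle and fibroblasts, had r = -0.712 (permutation p = 0.0267) and rho = -0.364. Its mean was 43.4 units, it stood at 145% of that at ZT22, and r was -0.159 without ZT22. miR-130a had r = -0.681 (permutation p = 0.0640) but rho = 0.014, and r turned to 0.241 without ZT22. The relations of all 8 entries therefore rest largely on one array. These entries were picked for their r over all 12 arrays, and ZT22 is the lowest array of miR-21 itself. Leaving it out therefore tends to weaken the r of entries picked in this way. On slide 1 alone 1 entry passed the adjusted test, miR-350, with r = 0.951, rho = 0.976 and an adjusted permutation p of 0.0302 over 8 arrays; its r over 12 arrays was 0.515.

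**Figure D5:**
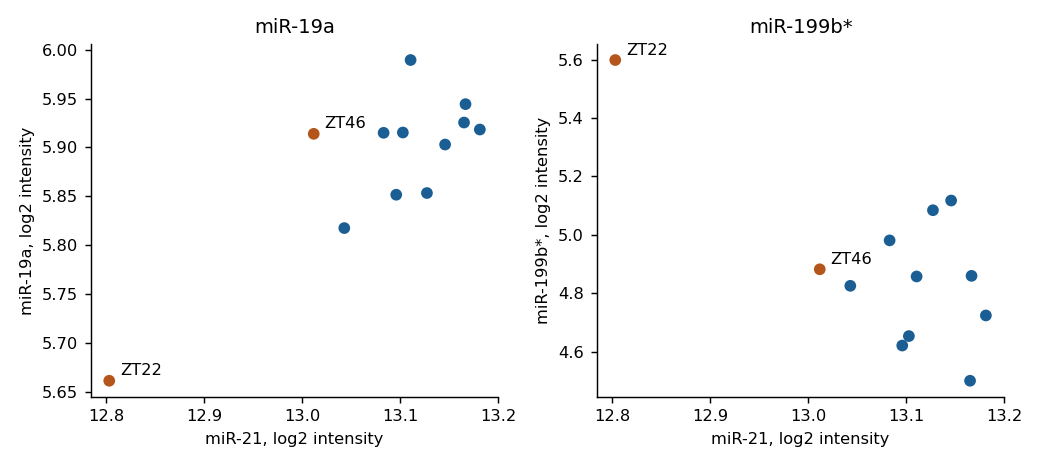
Log2 intensity of miR-19a (left) and miR-199b* (right) against that of miR-21, 1 point per array, with the arrays at 22 h in orange. ZT22 lies far from the other 11 arrays in both panels, and r falls from 0.824 to 0.349 and from -0.715 to -0.137 when it is left out.

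Markers of the liver's cell types were set beside miR-21, since it is made in more than one of them. Of the hepatocyte list 5 of 5 were tested, and their summed level was 36933 units at ZT22 and 38925 at ZT46, within the range of the other 10 arrays (35299 to 39046). miR-122 measured 29458 at its lowest, 31816 at the median and 33127 at its highest, and miR-192, miR-194 and miR-148a ranged from 3195 to 3739, from 1001 to 1149 and from 1201 to 1378 units. All 5 hepatocyte miRNAs, miR-802 included, were detected on 12 of 12 arrays. The 4 tested leukocyte miRNAs of 7, miR-142-3p, miR-223, miR-146a and miR-142-5p, summed to 533 at ZT22 and 506 at ZT46, against 460.5 to 570.1 on the other arrays. miR-150, miR-155 and miR-146b of that list were detected on 0 arrays. The endothelial miR-126-3p and miR-126-5p summed to 1453 and 1444, within 1344 to 1484, and the red cell miR-451 and miR-144 to 1877 and 2073, within 1417 to 2788. The summed levels of these 4 lists did not leave the range of the other arrays at 22 h. The hepatocyte sum is mostly miR-122, and 2 of its 5 members were highest at ZT22, against 23.9% of entries never at the floor. One of them was miR-802, dim and at the floor on 2 arrays, which measured 89.5 units at ZT22 and 22.2 to 33.9 on the other arrays. Its r with miR-21 was -0.717, and 0.470 without ZT22; it was named after its values were seen.

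The stellate and smooth muscle list did so at ZT22. Its 4 tested members of 6 are miR-143, miR-199a-3p, miR-199a-5p and miR-199b*, and all 4 were highest of the 12 arrays at ZT22, as were 23.9% of entries never at the floor. All but miR-143 are miR-199 entries, so the 4 are not independent of each other. All but miR-199a-3p (mean 114 units) were dim, with means of 43.4 (miR-143), 36.9 (miR-199a-5p) and 29.7 (miR-199b*). The 4 summed to 306 units at ZT22 and to 220.3 at ZT46, against 195 to 246 on the other 10 arrays. The summed level lay between 199 and 232 in the light and between 195 and 306 in the dark. miR-145, a defining miRNA of smooth muscle, was detected on 0 arrays and miR-214 on 1. All 4 had higher means in the dark, with a median dark-minus-light difference of 0.13 log2 units against -0.02 over all 139 entries, and 0 passed the limma test. Their median r with miR-21 was -0.67, against 0.01 over all tested entries. Without ZT22 the median difference was 0.04, with 3 members higher and 1 lower in the dark, and the median r was -0.09. Their part in the low level of miR-21 at ZT22 was not tested.

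Of 23 miRNAs that the literature ties to liver injury, regeneration or fibrosis beside miR-21, 15 were tested and 0 passed in light against dark, the 24-h wave, the time of day or the cycle. Means were lower in the dark for 9 and higher for 6, against 92 and 41 of all 139 entries, where 6 at the floor throughout have no direction, and the median difference was -0.01 log2 units against -0.02. Without ZT22 the counts were 12 and 3, against 95 and 38. The brightest by the array were miR-29a, miR-29b and miR-29c, which restrain collagen genes, and miR-26a, which restrains growth. Their dark-minus-light differences were -0.02, -0.01, -0.05 and 0.02 log2 units, and their fitted 24-h folds 1.05, 1.06, 1.04 and 1.06. The median 24-h fold of the list was 1.06, against 1.08 over all entries and 1.12 for miR-21. Their median r with miR-21 was -0.23. The summed level of the list was highest at ZT22, by a narrow margin, at 7724 units against 6900 to 7661 on the other 10 arrays. At ZT46 it was 7110. At ZT22 6 of the 15 had their highest value and 1 its lowest, against 26 and 17 of the 109 entries never at the floor. Without ZT22 the median r was 0.16. The 6 highest at ZT22 include miR-199a-3p and miR-199a-5p, which are also on the stellate and smooth muscle list. Of the 8 not tested, miR-214 was detected on 1 array, miR-33 on 5, and miR-222, miR-155, miR-127 and miR-150 on 0.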

How the data were processed

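miRNAs were measured on 12 arrays, each a pool of 2 livers. The deposited values are spot intensities on a linear scale, background-subtracted by Agilent Feature Extraction (version 10.7.3.1 per the file headers, 9.5.3.1 per the submitters' processing notes), with no scaling between arrays. The series value table held the same intensities as the scanner files. Outlier spots were removed, spots averaged per probe, and arrays brought to a shared 75th percentile, taken over 157 probes with more than 50% of spots well above background on all arrays, through division by factors of 0.910 to 1.16. The factor of ZT22 was 1.09. A floor of 22.2 units was set before log2. The brightest probe stood for an entry, and the 139 entries that 6 or more arrays detected went into limma 3.58.1 in R 4.3.3, adjusted by Benjamini-Hochberg at 0.05, after a check on simulated data. Of these, 6 lay at the floor on all arrays. The 24-h and 12-h waves were cosine and sine terms. Permutations numbered 100000 where not exact, in Python 3.11.15 with scipy 1.17.1. The number of arrays limits the precision.

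Besides miR-21 and its probes, the named entries are the other hairpin arm, the seed family, the 5 highest and 3 lowest r among entries never at the floor, and up to 4 members of each list by mean intensity; miR-425, miR-350, miR-802 and undetected list members were named after their values were seen. The members and lists were chosen with earlier results of these data known. Alternatives were another scaling, background correction, floor, probe rule, detection filter, slide block, and leaving out each array; normexp was applied to median spot signals, in place of the mean signals planned.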

Additional observations from a re-analysis of the deposited data

Results flagged for a closer look

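Among the 6 arrays of cycle 1, miR-21 was lowest at ZT22. On scaled log2 levels the gap to the next array was 0.6342 of the whole range with the brighter probe and 0.732 with the dimmer one. Both lie above Dixon's critical value of 0.625 for 6 arrays. Chance gives such a gap in about 1 in 20 groups, and both probes read the same RNA, so they count as one observation. The limit was also applied in cycle 2, in the light and in the dark. By chance, a gap past it in some group is therefore more likely than in a single group. Scaled levels at ZT22 were 7147 and 3446 units, 79.8% and 79.4% of the mean of the other arrays of cycle 1. Before scaling these shares were 86.9% and 86.5%, and the limit was not applied there. The brighter probe then read 7794 units at ZT22, 8466 at ZT18, the next lowest, and 9752 at ZT38, the highest. With the dimmer probe these were 3758 at ZT22, 4100 at ZT26 and 4821 at ZT38. Without scaling the gap was thus a smaller part of the range for both probes, and the flag depends on the scaling. In cycle 2, in the light and in the dark no array of miR-21 passed this limit.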

How the results depend on the processing

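No alternative moved miR-21 past an adjusted p of 0.05 in limma for the 24-h wave, the time of day, light against dark, the cycle or the 12-h wave, and with the design's few arrays this says little about stability. The sign of dark minus light turned with all-probe scaling (0.34) and on slide 2 alone (0.054). That of cycle 2 minus cycle 1 turned with all-probe scaling (-0.51), no scaling (-0.020) and relative to miR-122 (-0.011). All-probe scaling took a percentile of 3.63 to 11.7 units, near background, against 597 to 758 over the detected probes, and moved the median dark-minus-light difference of all entries to 0.38; normexp moved it to -0.36. With all-probe scaling 111 entries passed the correlation test, and r was 0.947 for miR-130a, 0.811 for miR-143 and 0.586 for miR-199b*; on slide 1 alone 1 passed. For miR-130a r was 0.0935 with no scaling and 0.565 without ZT22 and ZT46, and for miR-143 0.0550 without them. With normexp r was -0.272 for miR-19a, -0.242 for miR-25 and -0.220 for mcmv-miR-m88-1. The causes were not tested. Leaving out each array in turn gave 1.05 to 1.14 for the 24-h fold, -0.11 to -0.04 for dark minus light, 1.09 to 1.26 for the clock-time span, 1.04 to 1.13 for the 12-h fold, -0.011 to 0.047 for the cycle (-0.011 without ZT22 or ZT46), and -0.828 to 0.241 for the r of miR-130a. Quantile normalization gave no value, because the miR-21 probe ranks 4th on every array and so becomes constant. Time of day, cycle and the 12-h wave could not be fitted on slide 2. Collection times pair arrays 24 h apart, and that pairing is already part of the cycle test. No further paired analysis was run, because the labels carry no replicate numbers to block on. The alternatives with the dimmer probe, relative to miR-122 and on slide 2 alone, and those without ZT22 for the spread, the interaction and the lists, were chosen after seeing the data.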
